A study of Mus musculus with 2 samples.

Results

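The tissue kallikrein family of the mouse was examined through 10 genes, Klk1, Klk1b3, Klk1b4, Klk1b5, Klk1b8, Klk1b11, Klk1b21, Klk1b22, Klk1b26 and Klk1b27, out of 20659 genes that could be named on the arrays. All gene probes of these symbols were taken, 11 of 39429, with 2 for Klk1b26 and 1 for each of the others. The members were chosen by family, with the scaled processed signals of these same 2 arrays and their differences already known, so every value below is a description and nothing was tested. Total RNA came from glomeruli of male mice aged 8 months, 4 months after 1 intraperitoneal dose of 0.5 ml pristane, an oil that provokes lupus-like disease and nephritis. One group was wild type (WT) and the other carried a podocyte-specific deletion of Sirpa (Sirpa-/-), each with 1 array. The strain, the promoter behind the deletion and the number of mice behind each array were not stated in the labels, and mice without pristane were not analysed here. The extraction protocol describes whole glomeruli collected with magnetic beads, although the series text names podocytes. Having 1 array a group, the comparison gives differences between 2 arrays with no replicate error.

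Tissue kallikreins are secreted serine proteases. Klk1 is the kinin-releasing enzyme of the group: it cuts kininogen to free kinins, which act on the B1 and B2 receptors to widen vessels and promote salt excretion, and in the kidney it is made mainly by the connecting tubule. Mice carry a large set of Klk1b copies beside Klk1, many of them best known from the ducts of the salivary gland, where androgens raise them. Several copies are named for what they bind or cut, such as the growth factor EGF or prorenin.

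Gene probes well above background made up 85.3% (WT) and 86.7% (Sirpa-/-) and 0 spots were saturated. Markers of podocytes (14 of 14 genes) and of glomerular endothelium (11 of 11) were measured on both arrays, with median log2 differences of 0.086 and -0.032 and 0 genes at 2-fold. The widest podocyte differences were Nphs1 (0.63), Cd2ap (0.34), Tcf21 (-0.30) and Wt1 (0.28), and the widest endothelial ones Plvap (0.64), Sox17 (-0.20), Kdr (-0.20) and Gata5 (0.19). The processed signal of Sirpa itself went from 11624 (WT) to 17316 (Sirpa-/-), 1.55-fold higher where the label says it was deleted. Where that probe lies relative to the deleted part was not tested, and a podocyte-specific deletion leaves Sirpa in other cells. Every direction below therefore belongs to the Sirpa-/- labelled array.

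The family split in opposite directions. All 10 genes were well above background on both arrays. Against WT, 2 members (Klk1b27 and Klk1b22) lay 2-fold or more down on the Sirpa-/- labelled array, 3 (Klk1b5, Klk1b26 and Klk1) lay 2-fold or more up, and 5 differed by less. For the 18239 named genes with both arrays above background, the share past 2-fold was 1.67% on the low side, 1.56% on the high side and 3.23% in either direction. As reported, 48.4% of those past 2-fold were higher, and 58.9% with normexp, a background correction that raises dim signals. Of the 11336 that were at least as bright as Klk1b27, the shares were 0.909% and 0.741%. The members' log2 differences (Sirpa-/- labelled array minus WT, each array scaled to its 75th percentile) had a median of 0.33, against 0.0014 over all measured genes, and ran from -5.07 to 1.56. The median thus says little about a group whose ends lie so far apart.

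Klk1b27, a serine protease of the family known from Leydig cells of the testis, showed the widest gap. Its probe (A_51_P419656) gave a processed signal of 982 ± 98.2 for WT and 28.1 ± 3.17 on the Sirpa-/- labelled array, where the error is the scanner software's own estimate for 1 spot. The gene was clearly lit on one array and dim, though well above background, on the other. The log2 difference was -5.07, 33.5-fold lower, and only 1 of the 18239 measured genes had a lower one. The local background beside the spot was 18 on both arrays, and the raw median signal was 945 against 53. With the background corrected by normexp, the difference was -3.33.

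Klk1b22, also called EGF-binding protein A, was the other low member. Its probe (A_55_P2112986) gave 1211 ± 121 for WT and 295 ± 29.5 on the Sirpa-/- labelled array. This is a log2 difference of -1.98, 3.93-fold lower, and the gene stood at rank 37 from the lowest. Both signals were far from the dim end of the array, where the lowest signal well above background was 6.72 (WT) and 6.21 (Sirpa-/-).

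Klk1, tissue kallikrein itself, lay on the other side. The probe (A_51_P245414) gave 687 ± 68.8 for WT and 1796 ± 180 on the Sirpa-/- labelled array, a log2 difference of 1.45 (2.73-fold higher). Klk1b5, its neighbour in the gene order, gave 3990 ± 399 and 11307 ± 1131 (A_55_P2002933), a difference of 1.56 or 2.96-fold. Klk1b26, an EGF-binding protein that also converts prorenin, gave 2593 ± 259 and 7101 ± 710 on its brighter probe (A_55_P2025006), a difference of 1.52 or 2.86-fold. The differences of these 3 genes lay within 0.12 of each other, and between 0.559% and 0.685% of measured genes had a higher one. The second Klk1b26 probe (A_55_P2001474) was dim, at 13.9 and 16.1, and differed by only 0.28. Averaging both Klk1b26 probes gave 0.90, which is under 2-fold. Of 4561 genes with more than 1 measured probe, 4.3% had probes that lay at least 1 log2 unit apart.

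**Figure D1:**
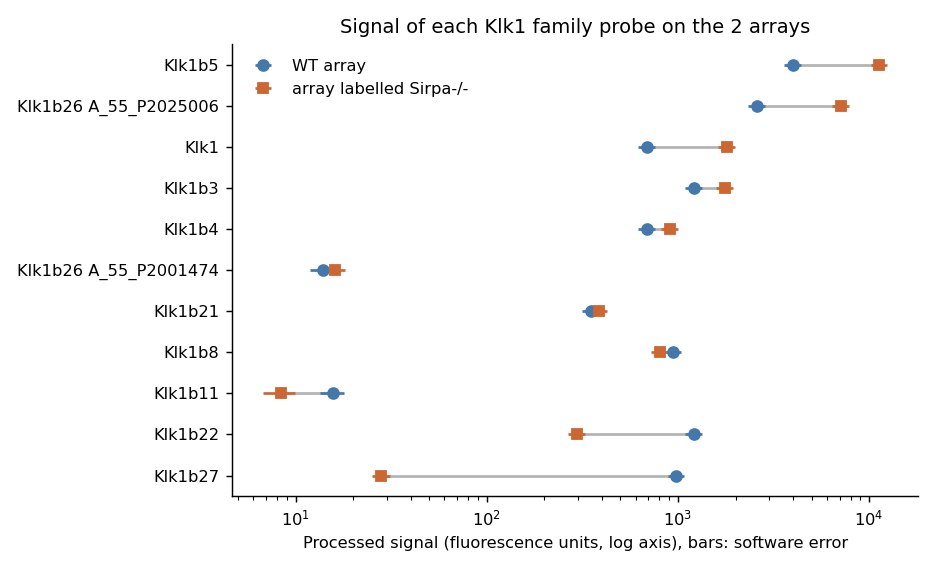
Processed signal (fluorescence units, log axis) of each of the 11 Klk1 family probes on the WT array (circles) and the Sirpa-/- labelled array (squares), ordered by difference; bars are the scanner software's error. Klk1b27 drops from 982 to 28.1 while Klk1b5 goes from 3990 to 11307; signals of different probes are not comparable as levels.

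The remaining 5 members lay nearer to 0. The next members inside 2-fold were Klk1b11 on the low side, at -0.84, and Klk1b3 on the high side, at 0.60. Klk1b3 gave 1207 and 1754 (1.52-fold higher on the Sirpa-/- labelled array). Klk1b4, a copy known to lack protease activity, gave 688 and 907, a difference of 0.46. Both thus leaned to the side of Klk1. Klk1b21 gave 350.3 and 384 (0.20) and Klk1b8 gave 944 and 807 (-0.16). Both therefore stayed close to their WT signal.

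Klk1b11 was the one dim member with a single probe, and that probe was spotted 10 times. Leaving out the 2 spots marked as outliers on an array, its signal ran from 12.1 to 20.4 on the WT array (median 17.6) and from 7.55 to 9.84 on the Sirpa-/- labelled array (median 8.31). The spot signals of the 2 arrays did not overlap. Over these 8 spots the log2 difference was -0.92 ± 0.27 (SD of spots of 1 array pair, which is technical spread), with single spots between -1.24 and -0.39. Averaging each array's own unmarked spots gave the -0.84 above, 1.79-fold lower. With normexp the difference was 0.060, where the median of all measured genes was 0.074 in place of 0.0014. The sign of the Klk1b11 difference thus rests on how the background is removed. For comparison, 258 probes spotted 10 times with a mean signal of 100 or more had a median SD of 0.056 between spots, and 102 dimmer ones 0.31.

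**Figure D2:**
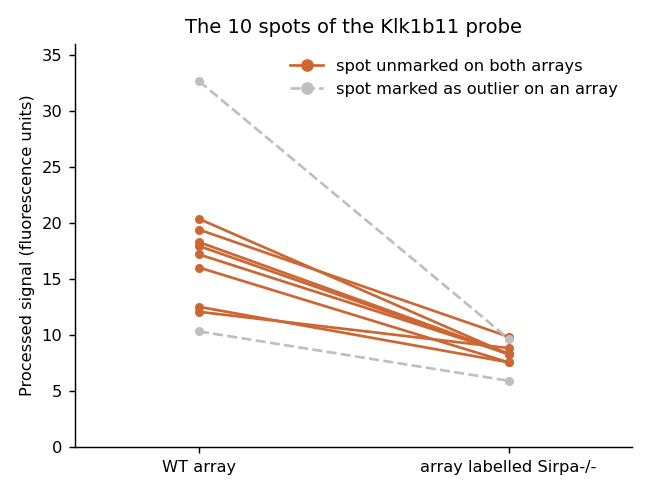
Processed signal (fluorescence units) of each of the 10 Klk1b11 spots for WT and the Sirpa-/- labelled array, with lines joining the same spot; dashed grey lines are the 2 spots marked as outliers. The 8 unmarked spots lie between 12.1 and 20.4 for WT and between 7.55 and 9.84 on the other.

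The members are close copies, so the sequence before their annotated starts is shown for 6 of them. These are the 2 most alike pairs, whose genes differed on the arrays, and the low Klk1b22 beside the high Klk1b5. Each run holds the 250 bases before the start on the plus strand, from RefSeq on GRCm38.p6, at chr7:44052040-44052289 (Klk1b27), chr7:44102042-44102291 (Klk1b21), chr7:44012428-44012677 (Klk1b26), chr7:43995627-43995876 (Klk1b11), chr7:44112423-44112672 (Klk1b22) and chr7:44216224-44216473 (Klk1b5). Capitals mark the motif TTTAAA, which resembles a TATA box and reads the same on both strands.
Klk1b27: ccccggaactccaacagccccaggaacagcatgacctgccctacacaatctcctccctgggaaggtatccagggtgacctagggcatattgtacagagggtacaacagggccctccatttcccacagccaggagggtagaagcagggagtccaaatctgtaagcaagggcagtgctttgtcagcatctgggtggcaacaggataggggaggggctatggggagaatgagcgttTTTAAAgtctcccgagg
Klk1b21: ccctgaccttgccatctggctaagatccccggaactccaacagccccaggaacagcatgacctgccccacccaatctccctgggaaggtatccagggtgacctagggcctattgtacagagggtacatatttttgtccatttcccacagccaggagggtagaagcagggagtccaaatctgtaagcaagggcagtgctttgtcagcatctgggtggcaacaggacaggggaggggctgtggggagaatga
Klk1b26: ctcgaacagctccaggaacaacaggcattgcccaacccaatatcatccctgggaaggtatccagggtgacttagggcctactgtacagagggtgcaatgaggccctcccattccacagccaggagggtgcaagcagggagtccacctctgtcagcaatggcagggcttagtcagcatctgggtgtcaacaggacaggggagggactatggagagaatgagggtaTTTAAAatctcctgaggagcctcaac
Klk1b11: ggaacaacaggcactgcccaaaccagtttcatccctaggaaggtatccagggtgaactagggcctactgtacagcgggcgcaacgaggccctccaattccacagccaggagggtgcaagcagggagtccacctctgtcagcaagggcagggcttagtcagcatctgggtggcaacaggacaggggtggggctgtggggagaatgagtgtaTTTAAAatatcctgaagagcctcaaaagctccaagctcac
Klk1b22: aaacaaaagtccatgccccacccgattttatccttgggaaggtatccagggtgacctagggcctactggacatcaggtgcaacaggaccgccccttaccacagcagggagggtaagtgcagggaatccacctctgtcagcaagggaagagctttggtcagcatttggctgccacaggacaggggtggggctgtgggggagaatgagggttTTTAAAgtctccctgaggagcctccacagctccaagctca
Klk1b5: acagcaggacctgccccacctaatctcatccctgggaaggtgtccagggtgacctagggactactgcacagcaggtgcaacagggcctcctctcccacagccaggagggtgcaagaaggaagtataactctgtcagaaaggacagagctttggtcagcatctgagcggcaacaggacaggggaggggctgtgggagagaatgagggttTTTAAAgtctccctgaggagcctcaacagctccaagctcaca

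Of the 45 pairs of members, aligned over the whole 300-base window with 50 bases after the start, identity ran from 76.3% to 92.8% with a median of 82.7%. The most alike pair was Klk1b21 and Klk1b27, at 92.8% over 279 aligned positions, and their differences on the arrays were 0.20 and -5.07. Next came Klk1b11 and Klk1b26, at 91.6%, with differences of -0.84 and 1.52, and Klk1b4 and Klk1b5, at 91.3%, with 0.46 and 1.56. Klk1b22 and Klk1b5, which lay on opposite sides, shared 84.6%. In the 2 most alike pairs, windows at 92.8% and 91.6% identity thus stood beside differing values. For the second pair this has limits: Klk1b11 was dim and gave 0.060 with normexp, and the dimmer Klk1b26 probe gave 0.28. TTTAAA stood in the 250 bases of 8 of 10 members, between 13 and 48 bases before the start, and in 12.1% of all 32851 promoters of that length. The 2 without it were Klk1, which lacks these letters in the whole window, and Klk1b21, which has them past the start. The palindromic consensus androgen response element, searched on both strands, was found in 0 of the 10 members and in 3 of all promoters. A match is only a run of letters, and its absence says nothing of the factors that act there. The letters of the array probes were not used here, so how far a probe reads a sister gene's RNA was not tested. Each value is that of a probe named for a gene.

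All 10 members lie in 1 stretch of chromosome 7 together with the other kallikrein genes. By the gene starts of the RefSeq table, only 2 pseudogenes lie between the lowest members Klk1b27 and Klk1b22. By the positions of the upstream sequences shown above, Klk1b21 (0.20) also lies between them. The 2 orders thus disagree on Klk1b21, and whether the low members are neighbours depends on the order taken. The high Klk1b5 and Klk1 sit at one end of the stretch, and the high Klk1b26 lies on the other side of Klk1b27. Klk1b16 (1.05), Klk1b24 (0.90), Klk1b3 and Klk1b4 are among the genes between Klk1b22 and Klk1. All 6 measured genes from Klk1b16 to Klk1 were thus higher on the Sirpa-/- labelled array, as were 50.2% of all measured genes. The run was marked off with these values known. Klk1b16 was dim, with signals of 43.2 and 85.6, while Klk1b24 gave 718 and 1285. Klk1b9, EGF-binding protein C, lay at -0.092 with 143 and 129, and Klk1b1 was not well above background on either array.

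**Figure D3:**
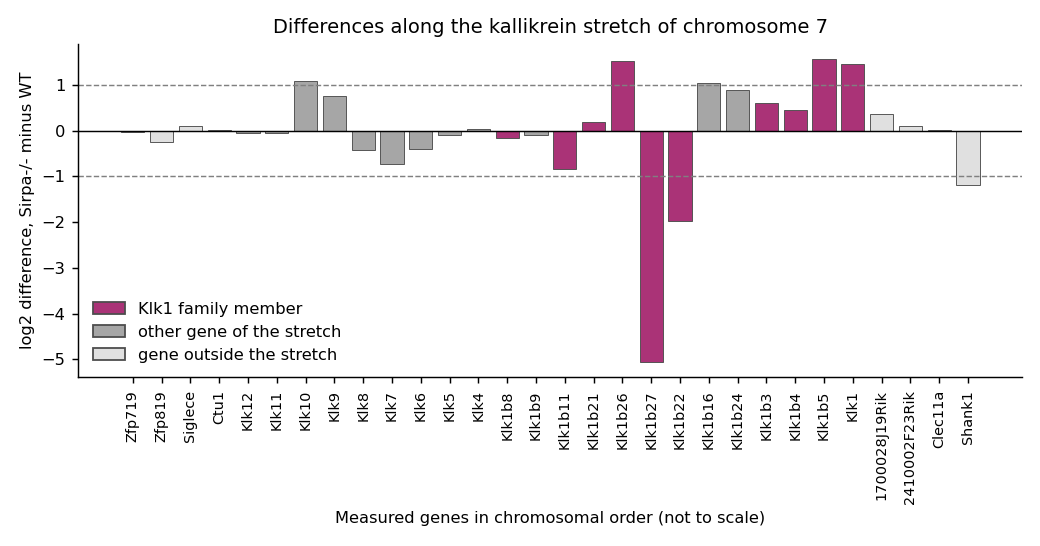
Log2 difference (Sirpa-/- labelled array minus WT) of each measured gene in the kallikrein stretch of chromosome 7 and of the nearest named genes on each side, in gene order and not to scale; dashed lines mark 2-fold. In this order Klk1b27 (-5.07) and Klk1b22 (-1.98) stand side by side, with Klk1b26 (1.52) on one side and Klk1b16 to Klk1 (0.46 to 1.56) on the other. By the positions of the upstream sequences, Klk1b21 (0.20) lies between Klk1b27 and Klk1b22.

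The genes around this stretch differed less. Of the 5 nearest named genes on each side, 8 were measured, with a median of 0.013 and 1 past 2-fold. That gene, Shank1, gave -1.18 on its brightest probe but 0.19 and 0.21 on its 2 further probes. The kallikrein-related peptidases Klk4 to Klk15, relatives of the family, and plasma kallikrein (Klkb1), which is a separate enzyme on another chromosome, had a median of -0.071 over 10 measured genes of 13. Klk10 was 2.12-fold higher, from 42.7 to 86.8, Klk9 gave 0.75 and Klk7 -0.72 at dim signals of 16.2 and 9.42. Klk8 gave 879 and 632, a difference of -0.41. The other measured peptidases were Klk6 (-0.39), Klk5 (-0.086), Klk11 (-0.056), Klk12 (-0.051), Klk4 (0.047) and Klkb1 (-0.10). Klk13 and Klk15 were not well above background on either array. Klk14 was so on the Sirpa-/- labelled array alone, but its signals were nearly equal, at 6.95 (WT) and 6.74 (Sirpa-/-).

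The pathway in which Klk1 acts was followed through 19 kinin system genes, all measured on both arrays. Past 2-fold there were 2 on the high side and 0 on the low side, with a median of -0.0092. Both high genes were kininogens, the substrates from which kallikrein releases kinins. Kng1 gave signals of 507 and 1154, a log2 difference of 1.25 (2.38-fold higher), but 0.16 on its dim second probe at 20.5 and 21.9. Kng2 gave 94.7 and 272, a difference of 1.58 or 3.0-fold. The kinin receptors were dim: Bdkrb2, the constitutive receptor, gave 22.6 and 34.8 (0.69), and Bdkrb1, the inducible one, gave 28.8 and 28.1 (0.024). Enzyme and substrates thus lay on the same side, while the receptors were below 2-fold.

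None of the enzymes that break kinins down passed 2-fold. Neprilysin (Mme) gave 0.29, Dpp4 0.38 and the endothelin-converting enzyme Ece1 0.37. Angiotensin-converting enzyme (Ace) gave 0.021, carboxypeptidase M (Cpm) -0.0092 and aminopeptidase P (Xpnpep1) -0.034, and Xpnpep2 gave -0.15. The plasma carboxypeptidase N subunits lay at -0.097 (Cpn1) and -0.32 (Cpn2). Among inhibitors, C1 inhibitor (Serping1) gave -0.027, Serpina3c -0.087 and the very dim Serpina5 0.35. Coagulation factor XII (F12), which starts the plasma kallikrein cascade, gave -0.27 at signals of 18.5 and 14.7.

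The proteins that Klk1b copies bind or cut, or that share their site of release, did not reach 2-fold in any of 8 cases. Egf, the growth factor bound by Klk1b9, Klk1b22 and Klk1b26, gave 14657 and 14350, a difference of 0.031. Renin (Ren1), made as prorenin, gave 745 and 718 (0.0097). The subunits of the epithelial sodium channel, a target of urinary kallikrein, were all on the higher side at 0.72 for Scnn1a, 0.91 for Scnn1b and 0.38 for Scnn1g, and its activating protease Prss8 lay at 0.089. Angiotensinogen (Agt) gave -0.053.

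Most markers in a joint list of the connecting tubule, the main source of Klk1, and the distal convoluted tubule lay on the side of the high members. The list does not separate these segments. In the connecting and distal convoluted tubule list, 5 of 9 measured genes passed 2-fold upward, 0 passed it downward, and the median was 1.04. The calcium-binding protein S100g gave 2564 and 6391 (1.38) and 1.48 on its other probe, the potassium channel Kcnj1 280 and 697 (1.38), and Calb1 26.6 and 67.0 (1.39). The thiazide-sensitive cotransporter Slc12a3 went further, from 22.6 to 125 (2.53), and Trpm6 gave 1.04. Below 2-fold were Slc8a1 (0.87), Pvalb (0.19, but 1.44 on its dimmer probe), Atp2b1 (0.11) and Wnk1 (-0.041). The calcium channel Trpv5 and Tmem52b were well above background on that array alone, at least 1.73-fold and at least 1.62-fold higher. The summed unscaled signal of the 9 genes was 13381 for WT and 17358 on the other array. A few bright probes dominate this sum, so it does not describe the list as a whole. Wnk1 gave 9134.5 and 8508, and S100g gave the 2564 and 6391 above. The part of these markers in the differences of Klk1, Klk1b5 and Klk1b26 was not tested. In bulk RNA, more tubule fragments in a glomerular preparation and more RNA per cell cannot be told apart.

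**Figure D4:**
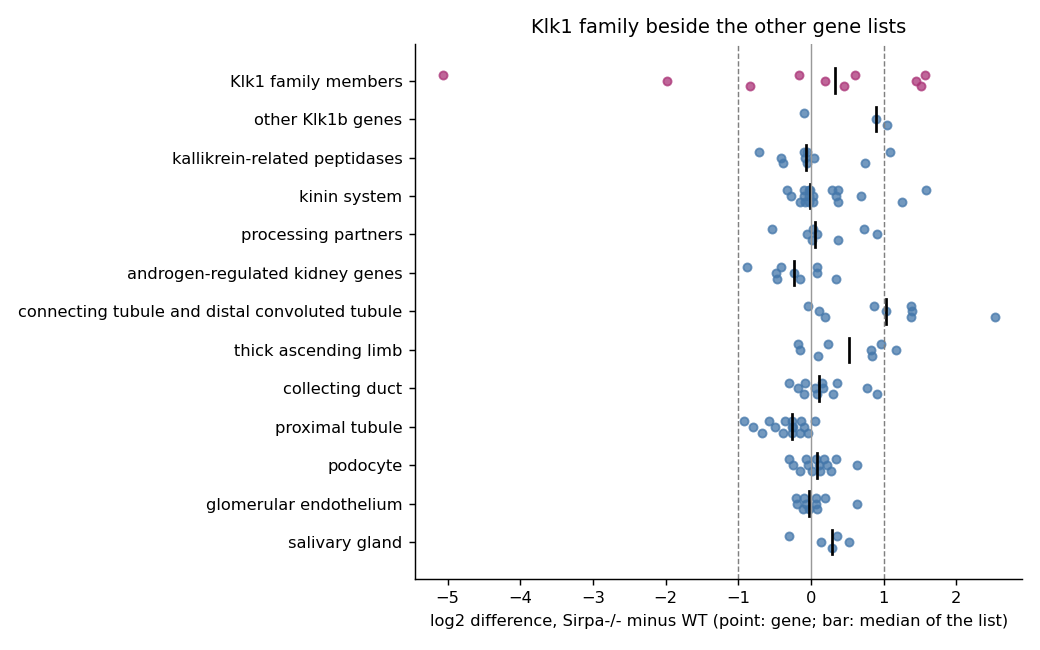
Log2 difference (Sirpa-/- labelled array minus WT) of every measured gene of the Klk1 family and of 12 other gene lists; each point is a gene, the black bar the median of its list and dashed lines mark 2-fold. The Klk1 family spans -5.07 to 1.56, while its high members lie in the range of the connecting and distal convoluted tubule genes (median 1.04).

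Neighbouring nephron segments gave smaller values. Thick ascending limb markers had a median of 0.53 over 8 genes, with Umod at 0.97 and Ppp1r1a at 0.82. Collecting duct markers had a median of 0.11 over 12 genes and 0 at 2-fold, with the intercalated cell factor Foxi1 at 0.91, the anion exchanger Slc4a1 at 0.77, the vasopressin receptor Avpr2 at 0.36 and Tfcp2l1 at 0.30. Proximal tubule markers lay on the low side in 15 of 16 genes, at a median of -0.26 and again 0 at 2-fold, led by Aqp1 (-0.93), Slc5a12 (-0.80), Slc7a13 (-0.67) and Slc17a3 (-0.58). Their summed unscaled signal was 21727 for WT and 16155 on the other array. The lowest of all these segment markers was Aqp1 at -0.93, against -5.07 for Klk1b27 and -1.98 for Klk1b22. Whether the proximal tubule markers have a part in the low members was not tested.

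Because Klk1b genes respond to androgens in other mouse tissues, 9 androgen-regulated kidney genes were read beside them. None reached 2-fold, 6 lay below 0 and the median was -0.24. Kap, the kidney androgen-regulated protein, gave 17942 and 12897, a difference of -0.41. The male-biased cytochromes Cyp4a12a and Cyp4a12b gave -0.48 and -0.88. Acsm3, an acyl-CoA synthetase, gave -0.47. Salivary gland genes were scarce: of 7 with a probe, 5 were measured, 4 of them at signals under 100, and Dcpp1 and Smr3a were not well above background on either array. The amylase gene Amy1, which is not limited to that gland, gave 648 and 888 (0.52). Smr2 gave 0.36, Prol1 0.28 and Bpifa2 -0.31.

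Most processing choices left the members where they were. Over 9 alternative settings, Klk1 ranged from 1.29 to 1.45 and Klk1b5 from 1.54 to 1.58. Klk1b22 gave -1.54 with normexp and -1.99 in the authors' value table. Klk1b27 ranged from -5.09 to -3.33 over the 8 settings that kept it. In the authors' value table, the same probes gave log2 values of 9.71 and 4.62 for Klk1b27, 10.02 and 8.03 for Klk1b22, 9.20 and 10.64 for Klk1, 11.73 and 13.31 for Klk1b5 and 11.12 and 12.62 for Klk1b26, in the order WT and Sirpa-/-. The split of the family thus stood in the authors' own processing as well.

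**Figure D5:**
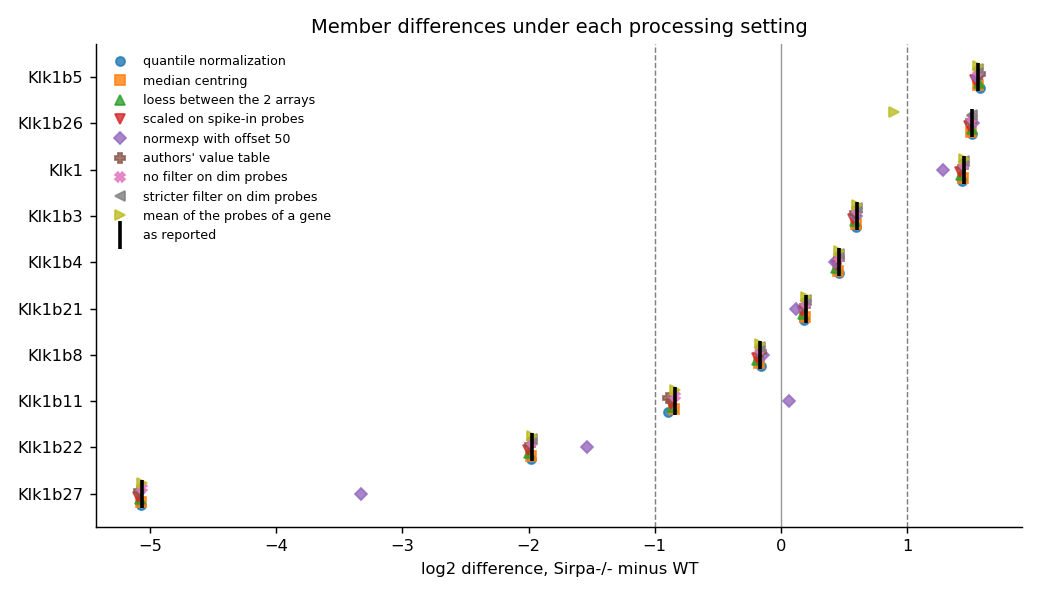
Log2 difference (Sirpa-/- labelled array minus WT) of each member as reported (black bar) and under 9 alternative settings (symbols); dashed lines mark 2-fold. The clear departures are normexp for Klk1b27 (-3.33), Klk1b22 (-1.54) and Klk1b11 (0.060), and the mean of both probes for Klk1b26 (0.90).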

How the data were processed

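Per the file headers, the authors scanned 1-colour Agilent arrays and extracted fluorescence intensity with Agilent Feature Extraction 11.0.1.1, while the submitters' processing notes name version 9.1; the processed signal is background-subtracted and spatially detrended, not normalized between arrays. The deposited value table holds log2 values made in steps that the labels and headers do not state.

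Log2 was taken of the processed intensity, unmarked spots of a probe were averaged, and the 75th percentile of gene probes (1157 and 1109 signal units for WT and Sirpa-/-) was subtracted. Probes were named through RefSeq accessions in a gene table of GRCm38.p6 (27234 of 39429 matched). The arrays were designed on another build, so its gene coordinates were not used to match probes to genes. Its gene starts were used only to put the genes of the kallikrein stretch and their neighbours in order. A gene counted as measured when each array had over 50% of its spots well above background, and its brightest probe stood for it. Genes past 2-fold were counted; with 1 array a group no test was possible. The script was tested on simulated data. Python 3.11.15, pandas 2.3.3, Biopython 1.88 and limma 3.58.1 in R 4.3.3 were used.

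The members, lists and thresholds were chosen with earlier results of these data known. The rule was to name every member and every measured kallikrein and kinin gene, and of other lists the 4 genes with the largest absolute differences; the lists of processing partners and of the connecting and distal convoluted tubule were given whole, beyond that rule. Some genes of these lists enter the counts and medians but are not reported here. Alternatives were quantile, median, loess and spike-in scaling (16 probes), normexp with an offset of 50, the authors' table, dropping or tightening the filter on dim probes, averaging a gene's probes, and folds of 1.5 and 3.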

Additional observations from a re-analysis of the deposited data

How the results depend on the processing

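The number of members at least 2-fold higher was 0 with a fold threshold of 3, in place of 3, and the number at least 2-fold lower was 1 with the stricter filter on dim probes, in place of 2, because that filter leaves out Klk1b27 and Klk1b11. The stricter filter also gave a median of 0.53 over the 8 members left. The connecting and distal convoluted tubule median was 0.71 with normexp, 1.38 with no filter and 0.61 with the stricter filter, and the kinin system median was 0.15 with normexp; the cause was not tested. In the other 51 settings of these counts and medians the value stayed within 1.5 times for counts, and within the median spot SD of 0.068 for medians. Of 88 values of single members under an alternative, 82 lay within that SD of the reported one, and 0 called members changed sign. Of all genes past 2-fold, 48.4% were higher as reported and 58.9% with normexp, where 113 were higher and 79 lower; as reported these counts were 285 and 304, with no filter 670 and 613, and with the stricter filter 80 and 103. No paired analysis was possible because each group has 1 array. The number of arrays limits the precision: no spread between animals is known, and for dim probes such as Klk1b11 the spot signal lies close to the limit of detection.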
